A study of Saccharomyces cerevisiae with 29 samples.

Results

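Chromosome III of budding yeast carries the mating-type system, and in L03, the reference sequence made for the strains of this series, it also carries engineered sites at AGP1 and LEU2. Its members were chosen by position. They are all 759 rows that the L03 annotation places on the sequence whose chromosome row has the alias III, out of 26240 rows on 16 chromosomes. The rows include 159 protein-coding genes with an annotated mRNA, called genes below, 19 replication origins, 10 tRNA genes and 18 long terminal repeats (LTRs), with 1 centromere, 8 regions, 10 repeat regions, 4 small nucleolar RNA genes and 2 pseudogenes. The remaining rows are the exons, coding sequences and mRNAs of these genes, other gene rows, the parts of the centromere, 1 sequence-tagged site and the chromosome itself.

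The series holds 29 libraries of 14 Saccharomyces cerevisiae strains, made to map ribonucleotides left in genomic DNA by sequencing the 5′ ends that alkaline hydrolysis exposes (HydEn-seq). The strains that lack RNase H2 activity are pol1-L868M rnh201-delta, pol1-Y869A rnh201-delta, pol2-M644G rnh201-delta, pol2-M644L rnh201-delta, pol3-L612G rnh201-delta, pol3-L612M rnh201-delta and rnh201-delta, with 16 libraries, and their RNH201 counterparts are the pol1-L868M, pol1-Y869A, pol2-M644G, pol2-M644L, pol3-L612G and pol3-L612M strains and the wild type, with 13. Read ends from the sequenced samples are outside what was examined, so every value below is a position, a length, a count or a distance in the reference, with no replicate, no error and no sequencing depth. The strain names give neither a mating type nor the alleles at AGP1 and LEU2. No test was made, since the features of 1 sequence are not replicates, and ranks among the 16 chromosomes describe this annotation.

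In haploid yeast the mating type is set by the cassette at the active locus MAT, and complete but silent cassettes stand at HML and HMR near the chromosome ends as donors for switching. Silencing is built from short elements at the borders of HML and HMR, which bind the origin recognition complex and also score as origins on plasmids (autonomously replicating sequences, ARS). The origins around HML are known to be little used on the chromosome itself, while ARS305, ARS306 and ARS307 are well-studied active ones. Retrotransposons of the Ty1 to Ty4 kinds insert upstream of genes transcribed by RNA polymerase III, mainly tRNA genes, and leave single LTRs behind. Ty5 inserts in silent chromatin.

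On chromosome III (312447 bp) the mating-type loci stood in the order HML, the centromere, MAT and HMR. HML lay at 10972 to 14663, MATALPHA at 194500 to 197006 and HMR at 288218 to 290864, all on L03 (ref_v2) and numbered from 1. HML was thus 11.0 kb from the left end and HMR 21.6 kb from the right end. Between HML and MATALPHA were 179.8 kb of sequence with 93 whole genes and 11 whole origins. Between MATALPHA and HMR were 91.2 kb with 45 whole genes and 2 whole origins. The active locus in the reference was an alpha cassette, as its name and genes state, and MATA1 and MATA2 were not analysed here.

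**Figure D1:**
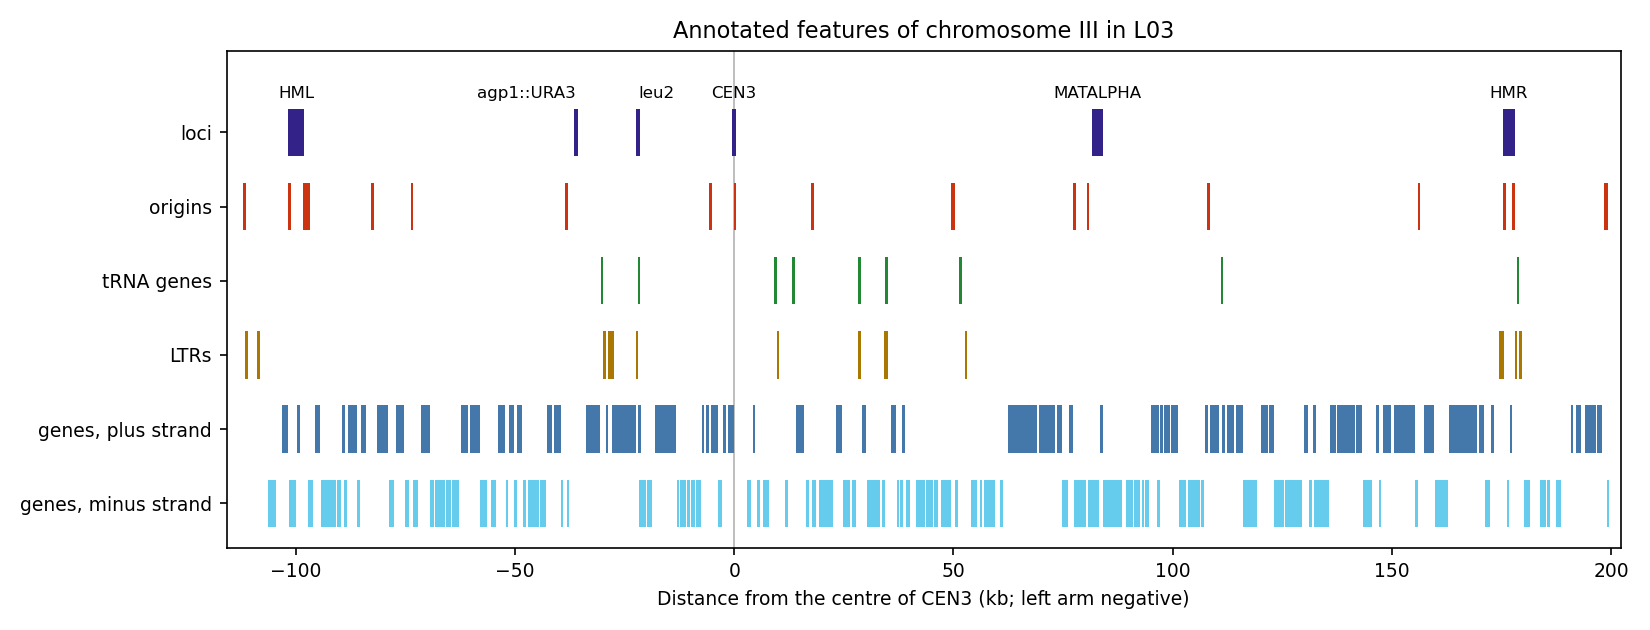
Map of chromosome III with distance from the centre of CEN3 in kb on the horizontal axis, the left arm negative. Rows show the named loci, origins, tRNA genes, LTRs and the genes of each strand, with narrow features widened to be visible; origins crowd the left end around HML, where 5 lie in the first 20 kb, and stretches without an origin reach 48.0 kb on the right arm.

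Both silent loci began and ended with an origin, whereas MATALPHA held none. ARS301 (10972 to 11226) started at the first base of HML and ARS302 (14390 to 14663) ended at its last base. In the same way ARS317 (288218 to 288751) opened HMR and ARS318 (290234 to 290864) closed it. These origins took up 14.3% of HML and 44.0% of HMR, and left 3163 bp between them at HML and 1482 bp at HMR. Both silent loci are bounded at origin edges in the annotation, so the origins at their ends and these shares follow from those bounds. The origin nearest to MATALPHA was ARS314, 1061 bp to its left and 11 bp from BUD5.

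The cassettes shared a divergent pair of genes, with the minus-strand gene on the left and the plus-strand gene on the right. HMLALPHA2 (YCL067C, 12212 to 12844) and MATALPHA2 (YCR039C, 195375 to 196007) were each 633 bp long and code for 210 residues of the homeodomain repressor alpha2. HMLALPHA1 (YCL066W, 13108 to 13635) and MATALPHA1 (YCR040W, 196271 to 196798), for the activator of alpha-specific genes, were each 528 bp long and code for 175 residues. The space between the alpha genes was 263 bp at both loci. The silent and the active alpha cassette therefore had the same lengths and spacing, and their bases were not analysed here.

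HMR carried the other kind of cassette. HMRA1 (YCR097W, 289665 to 290151), for the homeodomain partner of alpha2, spanned 487 bp in 3 exons of 105, 246 and 30 bp, with introns of 54 and 52 bp, and its 381 coding bp match 126 residues. HMRA2 (YCR096C, 289009 to 289368) was 360 bp long and codes for 119 residues. The genes of HMR were 296 bp apart. Each silent mating-type gene lay within 1.5 kb of an origin, measured between midpoints. The distances were 0.641 kb for HMRA1 to ARS318, 0.704 kb for HMRA2 to ARS317, 1.155 kb for HMLALPHA1 to ARS302 and 1.429 kb for HMLALPHA2 to ARS301. MATALPHA2 and MATALPHA1 were 2.369 and 3.212 kb from ARS314.

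**Figure D2:**
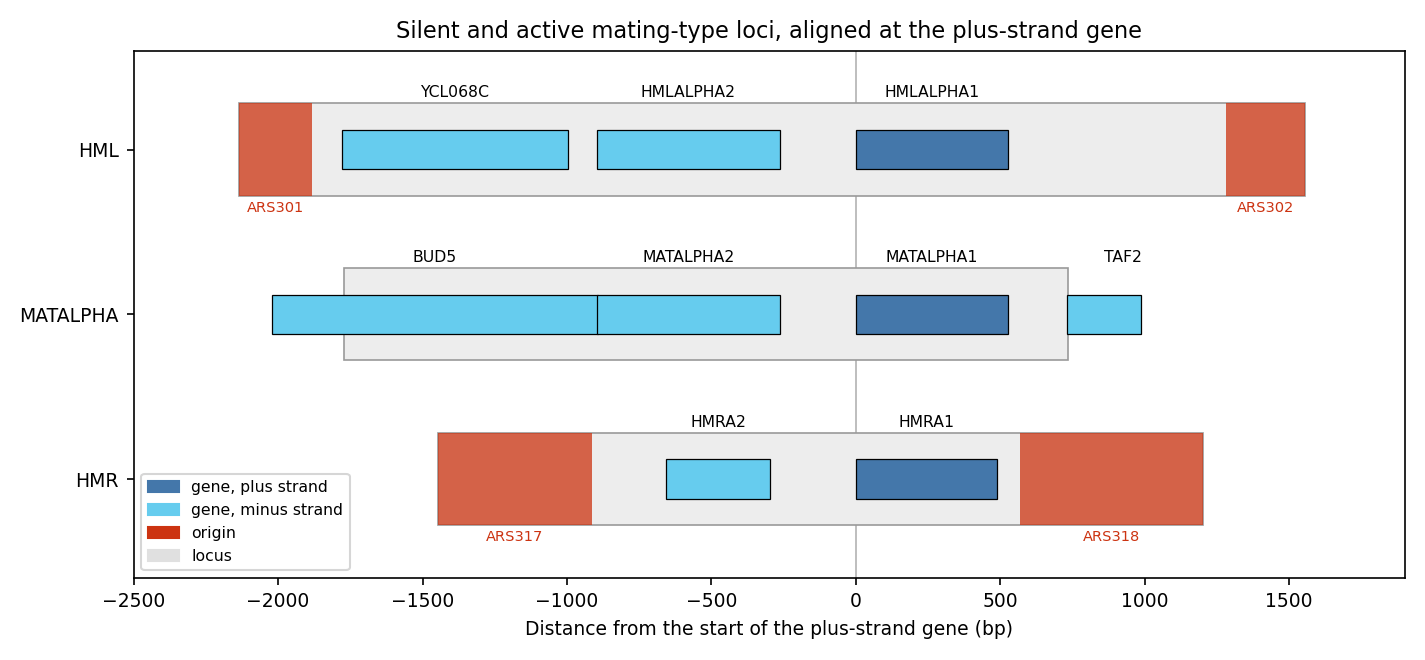
The mating-type loci drawn to scale and aligned at the left edge of their plus-strand gene, with distance in bp on the horizontal axis; grey boxes are the loci, red boxes origins and blue boxes genes by strand, and BUD5 and TAF2 are drawn only in part. HML and HMR are closed on both sides by an origin, MATALPHA by none, and the alpha gene pairs of HML and MATALPHA have the same lengths and spacing.

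The neighbours of the cassettes differed. At MATALPHA both sides ran into coding genes. BUD5 (YCR038C), for the exchange factor of the bud-site GTPase, overlapped MATALPHA2 by 4 bp and had 879 of its 1929 bp inside the locus, and TAF2 (YCR042C), of the general transcription factor TFIID, reached 4 bp into it from the right. At HML, YCL068C (11329 to 12111, 783 bp, product unknown) stood whole inside the locus, 100 bp from HMLALPHA2. To the left, VBA3, a vacuolar transporter gene for basic amino acids, ended 63 bp before HML. To the right, the near edge of CHA1, for the serine and threonine deaminase, lay 949 bp after it.

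The gap between HMLALPHA1 and CHA1 held 3 origins in a row. ARS302 was followed after 21 bp by ARS303 (14685 to 15028), which ran directly into ARS320 (15029 to 16089), so that together they spanned 1700 bp. ARS320, at 1061 bp the longest origin of the chromosome, covered 477 bp of CHA1. HMR had retrotransposon sequence beside it in place of extra origins. YCRWDELTA12 and YCRWOMEGA3 lay 675 and 220 bp to its left, YCRWDELTA13 overlapped ARS318 by 32 bp, and the threonine tRNA gene TT(AGU)C began 449 bp to its right. Within 5 kb were 4 LTRs at HMR, 0 at HML and 0 at MATALPHA. The LTR nearest to HML, YCLWOMEGA2 of a Ty5 element, ended at 4212, outside this limit. The nearest genes were YCR095W-A, 2590 bp to the left, and GIT1, for a glycerophosphoinositol transporter, 2014 bp to the right.

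Origins were densest at the left end. The leftmost 20 kb held 5, namely ARS300, ARS301, ARS302, ARS303 and ARS320, and the leftmost 40 kb held 7, with ARS304 (30020 to 30477) and ARS305 (38981 to 39529) added. The right end of the same chromosome had 1 within 20 kb and 3 within 40 kb. Among the other 31 chromosome ends, the number within 20 kb ran from 0 to 3 with a median of 0, and the number within 40 kb from 0 to 4 with a median of 1. The count of 4 occurred at both ends of chromosome X.

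The outermost origins overlapped the telomeric regions in part. The left telomeric region TEL03L spanned 1096 bp and the right one, TEL03R, 835 bp. ARS300 (840 to 1443) covered 257 bp of the X core element of TEL03L and contained the whole LTR YCLWOMEGA1, and ARS319 (311184 to 312066) contained all 454 bp of the X core element of TEL03R and the whole 192 bp of YCR108C, the last gene. The first gene was YCL073C, whose left edge lay 5229 bp after the inner edge of TEL03L. The R64 table names it GEX1. Over all chromosomes 11 of 32 X core elements overlapped an annotated origin.

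Along the rest of the chromosome the origins were ARS306 (74286 to 74505), ARS307 (107125 to 107640), ARS308 (112666 to 113284), ARS309 (130330 to 130673), ARS310 (162332 to 163177), ARS313 (190094 to 190342), ARS314 (193207 to 193438), ARS315 (220646 to 220891) and ARS316 (268682 to 268925), before ARS317 and ARS318 at HMR and ARS319 at the end. ARS306 was the shortest, with 220 bp, and the median length of the 19 was 458 bp. The origins followed the sequence of their numbers, except that ARS320 stood between ARS303 and ARS304. All 19 carried a qualifier of non-experimental evidence only, which does not show that evidence is absent.

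Distances between neighbouring origin midpoints ran from 0.33 to 48.0 kb with a median of 16.1 kb, and the median over the other 15 chromosomes was 39.2 kb. Of the 18 distances on chromosome III, 5 were under 5 kb and 4 were over 30 kb. The short ones were at HML (3 distances), at HMR and between ARS313 and ARS314 beside MATALPHA. All of them therefore lay at or near a mating-type locus.

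The longest stretch, 48.0 kb between ARS315 and ARS316, held 25 genes, 15 on the plus and 10 on the minus strand, 1 tRNA gene and 0 LTRs. Its centre lay beside YCR075W-A, and the 5 genes over 20 kb from any origin were here: SOL2 (22.5 kb), ERS1 (23.5 kb), YCR075W-A (23.9 kb), YCR076C (23.3 kb) and PAT1 (21.5 kb), a factor of mRNA decay. The stretch of 35.1 kb between ARS305 and ARS306 held 23 genes, with 0 tRNA genes and 0 LTRs, and was centred beside SRO9, for an RNA-binding protein. The third, 33.0 kb between ARS306 and ARS307, held both engineered sites together with 16 genes, 2 tRNA genes and 6 LTRs.

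All 19 origin midpoints lay outside genes, and so did 247 of 255 (96.9%) on the other chromosomes. On chromosome III 13 origins touched no gene, a count not set beside the other chromosomes. The 6 that did overlapped by 12 bp at YCR090C (ARS316), 56 bp at ADY2 (ARS309), 34 bp at RBK1 and 100 bp at PHO87 (both ARS313), 192 bp at YCR108C (ARS319), 12 bp at LDB16 and 191 bp at PGS1 (both ARS307) and 477 bp at CHA1 (ARS320). By the strands of their flanking genes, 9 of 18 origins stood in a convergent gap (50%), 8 in a tandem gap (44.4%) and 1 in a divergent gap (5.56%), ARS300 having no gene to its left. On the other 15 chromosomes the shares of 242 such origins were 33.1%, 47.9% and 19.0%. Because ARS302, ARS303 and ARS320 share the gap between HMLALPHA1 and CHA1, the 9 origins stood in 7 gaps of 16. Elsewhere the convergent gaps were 80 of 240. The 7 gaps on chromosome III included those at ARS301, ARS302, ARS317 and ARS318, the origins of the silent loci. The only divergent pair was YCR090C and KIN82, a protein kinase gene, around ARS316.

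The centromere lay inside an origin. CEN3 spanned 117 bp at 112730 to 112846 and was made up of its 3 conserved elements, CDEI of 10 bp, CDEII of 82 bp and CDEIII of 25 bp, with no base between them. CDEI and CDEIII are the sites bound by Cbf1 and by the CBF3 complex in budding yeast. ARS308, 619 bp long, began 64 bp to the left of CEN3 and ended 438 bp to its right. Of the 16 centromeres, 2 overlapped an origin at all, and the other was CEN12, by 1 bp with ARS1208. The genes around CEN3 were YCL001W-B, 360 bp to the left, and CDC10, for a septin, 2878 bp to the right.

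The arms were unequal, with the left one taking 112.7 kb and the right one 199.6 kb. The left arm held 62 genes, 9 origins, 2 tRNA genes and 8 LTRs, and the right arm 97 genes, 10 origins, 8 tRNA genes and 10 LTRs. Per 100 kb this gave 7.98 origins on the left and 5.01 on the right, and 1.77 tRNA genes on the left against 4.01 on the right. The left arm's tRNA genes, TE(UUC)C and SUP53, were both between AGP1 and LEU2 or at LEU2 itself. No tRNA gene stood left of 82343, and the LTRs there were the pair of the Ty5 element.

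AGP1 and LEU2 were altered in the reference. AGP1 (YCL025C), for a broad amino acid permease, was annotated as a region with a coding sequence and without an mRNA at 75845 to 77800 on the minus strand. The insert with URA3 divided it into 242 bp on the left and 480 bp on the right, so 722 bp remained, or 38.0% of the 1902 bp that its stated protein requires, and 1180 bp were gone. Stretches of 40 bp marked as disruption targets stood on each side of the insert, at 76047 to 76086 and at 77321 to 77360, both inside AGP1. URA3, for orotidine phosphate decarboxylase, was 804 bp long in 268 codons, stop included, with 260 bp of insert before it and 170 bp after it.

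The insert stood close to ARS306. It began 1581 bp after ARS306, and the midpoint of URA3 was 2.35 kb from that of ARS306 and 30.6 kb from that of ARS307. URA3 was transcribed from left to right, so it pointed away from ARS306, while AGP1 pointed toward it. Between ARS306 and AGP1 lay FRM2, a gene of the nitroreductase family, 26 bp from the origin and 731 bp from AGP1, and its relative HBN1 stood 471 bp on the other side of the origin. To the right of AGP1, KCC4, for a kinase of the septin checkpoint, followed after 1242 bp.

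At LEU2 (YCL018W), for beta-isopropylmalate dehydrogenase, 58 bp remained at 90916 to 90973, or 5.30% of 1095 bp. The remnant lay whole inside the annotated insertion site of the KanMX drug-resistance marker, 187 bp at 90792 to 90978. The same site also overlapped the neighbouring leucine tRNA gene SUP53 (TL(CAA)C, 90740 to 90853) by 62 of its 114 bp, or 54.4%. SUP53 ended 62 bp before the remnant of LEU2. On the other side, NFS1, for the cysteine desulfurase of iron-sulfur cluster assembly, came 143 bp after the site. The annotation lists the tRNA gene across the edge of the site.

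The KanMX site stood midway between its flanking origins. Its centre was 16.49 kb from the midpoint of ARS306 and 16.50 kb from that of ARS307, and the point equidistant from these origins, 90889, was 4 bp from that centre. Between both engineered sites were 13.5 kb with 4 genes (KCC4, YCL021W-A and the retrotransposon genes YCL020W and YCL019W), 1 whole tRNA gene and 6 LTRs. Of 7 regions with a construction label in the whole file, 4 were on chromosome III.

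**Figure D3:**
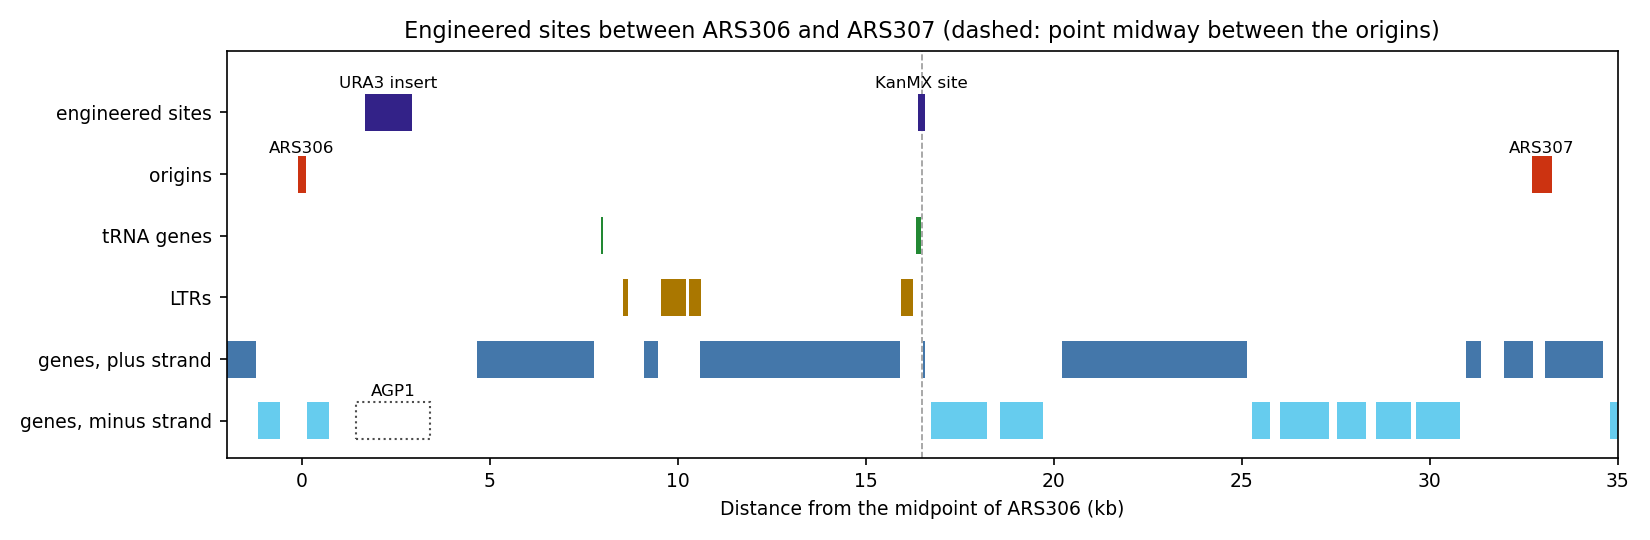
The stretch from ARS306 to ARS307 with distance from the midpoint of ARS306 in kb on the horizontal axis; rows show the engineered sites, origins, tRNA genes, LTRs and genes of each strand, and the dotted outline is the interrupted AGP1. The URA3 insert lies 2.31 kb from ARS306 by its centre, and the KanMX site sits on the dashed line midway between the origins.

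Retrotransposon sequence was of 3 families. Of the 18 LTRs, 14 were delta (Ty1 and Ty2), 3 were omega (Ty5) and 1 was tau (Ty4), and 14 were on the plus and 4 on the minus strand. The 3 omega LTRs compare with 5 on all other chromosomes. The lengths of all 18 ran from 22 to 340 bp with a median of 283 bp. The omega LTRs lay near a telomere or a silent locus. YCLWOMEGA1 (157 bp) and YCLWOMEGA2 (250 bp) bounded the Ty5 element YCLWTY5-1 at 1165 to 4212, beside the left telomere, with the pseudogenes YCL075W and YCL074W between them, and YCRWOMEGA3 (246 bp) was 220 bp from HMR. The file marks YCLWTY5-1 as the near full-length Ty5 of S288C and as not functional.

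The Ty2 element YCLWTY2-1 (84692 to 90650, 5959 bp) was whole, with LTRs of 332 bp at both ends and 5295 bp between them. It held YCL020W (1317 bp, the gag gene) and YCL019W (5314 bp, the gag-pol gene), which share their start. Just before it lay a nested group. YCLWDELTA3 (332 bp) stood between YCLWDELTA2A (226 bp) and YCLWDELTA2B (89 bp) with 0 and 3 bp to spare, and these pieces sum to 315 bp, near the 329 bp median of delta LTRs over all chromosomes. The element ended 89 bp upstream of SUP53, at YCLWDELTA5.

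Of the 10 tRNA genes, 5 on each strand, 7 had an LTR within 1 kb of their edges (70%), against 172 of 265 elsewhere (64.9%). The glutamate gene TE(UUC)C had YCLCDELTA1 521 bp upstream, SUP53 had YCLWDELTA5 89 bp upstream, and the proline gene SUF2 had YCRCDELTA6 485 bp upstream. The glycine gene SUF16 was overlapped by YCRCDELTA7 for 14 bp. The genes without one were TN(GUU)C for asparagine, TQ(UUG)C for glutamine, with an LTR 1200 bp away, and SUP61 for serine, whose nearest LTR was 58054 bp away.

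Conversely, 9 of 18 LTRs had their midpoint within 1 kb of that of a tRNA gene (50%), against 66.4% on the other chromosomes. Measured between edges the count was also 9. Of these 9, 7 were upstream of the tRNA gene nearest to them and 2 downstream, against 241 upstream and 10 downstream elsewhere. The downstream ones were YCRCTAU1 beside TM(CAU)C and YCRCDELTA14, 401 bp after TT(AGU)C. This threonine gene was also the tRNA gene nearest to an origin, 0.801 kb from ARS318. The median over the 10 genes was 8.26 kb, and SUP53 was farthest, at 16.4 kb. Of the 10 genes, 5 pointed away from the nearest origin, a count not set beside the other chromosomes.

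**Figure D4:**
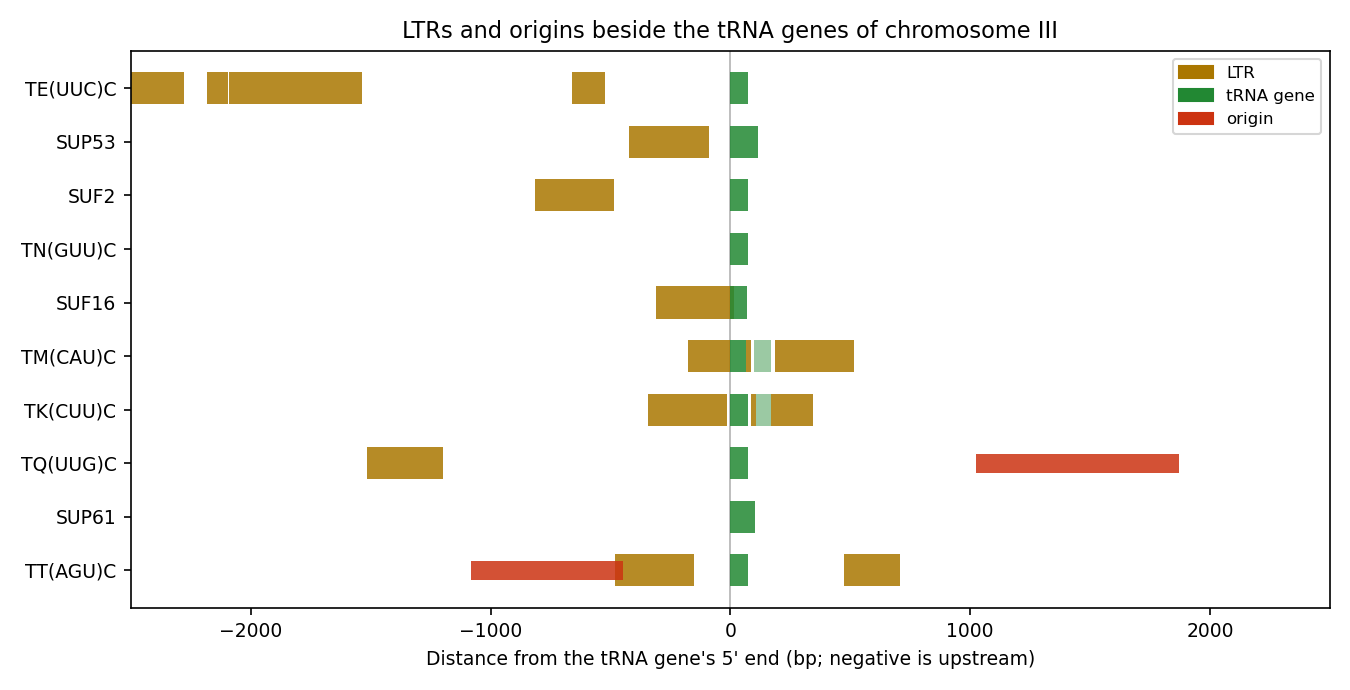
The 10 tRNA genes of chromosome III aligned at their 5′ end, each drawn in its own direction of transcription, with distance in bp on the horizontal axis and upstream negative; LTRs are brown, origins red and a neighbouring tRNA gene pale green. LTRs lie upstream of TE(UUC)C, SUP53, SUF2, SUF16 and TQ(UUG)C, on both sides of TM(CAU)C, TK(CUU)C and TT(AGU)C, and outside the window at TN(GUU)C and SUP61.

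A stretch of 1097 bp from SRD1 to YCRWDELTA10 packed 6 features together. SRD1 (YCR018C, 146583 to 146963), a gene linked to rRNA processing, was followed after 25 bp by YCRWDELTA8, which touched the methionine tRNA gene TM(CAU)C (147164 to 147228), which in turn touched YCRCTAU1 (147229 to 147250). The lysine gene TK(CUU)C came 11 bp later on the opposite strand, and YCRWDELTA10 14 bp after that. Several of these were short, and whether that is a property of the L03 sequence or of how the annotation was transferred to it cannot be told apart here. SRD1 had 381 coding bp, and the 221 residues given for it would need 666 bp. TM(CAU)C had 65 bp, the least of the 275 tRNA genes, while the other 9 methionine tRNA genes had 72 or 73 bp. YCRCTAU1 had 22 bp, the least of the 381 LTRs, while the other 34 tau LTRs had 84 to 371 bp with a median of 363 bp.

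YCRCTAU1 also stood on the plus strand, although the letter C in its name stands for the minus strand. Of the 381 LTRs it was the only one whose letter and strand differed. Among the 159 genes no name and strand disagreed.

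Coding lengths mostly fitted the stated proteins, with 152 of 159 genes at 0 bp of difference. The other 7 were LEU2, SRD1 (-285 bp), YCL073C (-20 bp), MRC1 (-3 bp), YCR024C-B (-1 bp), YCL002C (1 bp) and VAC17 (6 bp), the last a gene of vacuole inheritance next to MRC1. Of the 159 genes 7 had more than 1 coding part. They were RPS14A, RIM1, VMA9, HMRA1, YCL012C and YCL002C, and YCL019W, whose parts mark a shift of reading frame and not an intron. Neither count was set beside the other chromosomes, so neither shows a trait particular to chromosome III.

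Genes were short and close together. Chromosome III had 50.9 genes per 100 kb, against 41.8 (chromosome I) to 50.1 (chromosome XIV) on the others, but genes covered 68.4% of its sequence, against a median of 72.4%. The median gene was 1065 bp long, below the range of 1122 to 1297.5 bp of the other chromosomes' medians. With the 122 genes that carry a qualifier of experimental evidence, the density was 39.0 per 100 kb, level with the median of 39.0 for the others. The longest genes were BPH1 (6504 bp), of the Beige and Chediak-Higashi protein family, CDC39 (6327 bp), the scaffold of the Ccr4-Not complex, and YCL019W.

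Of 158 neighbouring pairs, 40 were convergent (25.3%), 40 divergent (25.3%) and 78 tandem (49.4%). The shares on the other chromosomes were close, at 25.8%, 25.9% and 48.3%. On chromosome III 5 pairs overlapped, a count not set beside the other chromosomes. The overlaps were YCL020W with YCL019W, ARE1 with YCR050C by 298 bp, YCL042W with GLK1 by 106 bp, YCR099C with YCR100C by 29 bp and BUD5 with MATALPHA2. Convergent gaps had a median of 170 bp, divergent ones 381.5 bp and tandem ones 373 bp, against 230, 546 and 400.5 bp on the other chromosomes. Gaps over 3 kb numbered 4. The longest, 3929 bp between FRM2 and KCC4, held the interrupted AGP1, which has no mRNA and spans 1956 bp of it. The others were between CIT2 and YCR007C, left of HMR, and at CEN3.

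The minus strand held more genes than the plus strand, with 70 of 159 on the plus strand (44.0%). The other chromosomes had 45.8% to 54.5%. The longest run of 1 strand was 11 minus-strand genes in 22.1 kb, from HSP30, a membrane stress protein gene, to RPS14A, and it passed across ARS310. The runs of the other chromosomes had maxima of 6 to 17 genes, and 4 of the 15 had a run at least as long.

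Chromosome III had 6.08 origins per 100 kb, against 2.17 on the other 15 chromosomes together, and was the highest of the 16. Chromosomes I and VI, which are the only shorter ones, had 4.89 and 4.44. LTRs came to 5.76 per 100 kb, against 3.09 for the others together, with chromosome V almost level at 5.73. The count takes the pieces YCLWDELTA2A and YCLWDELTA2B as separate LTRs, and densities with such pieces joined were not computed. The density of tRNA genes, 3.20 per 100 kb, ranked 5 of 16 from the highest. Genes on chromosome III lay nearer to an origin, with a median of 6.21 kb, against 6.35 kb on chromosome I and 13.8 kb over the other 15 chromosomes together. Within 10 kb of an origin were 110 of 159 genes (69.2%), against 68.1% on chromosome I and 37.5% over the 15.

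**Figure D5:**
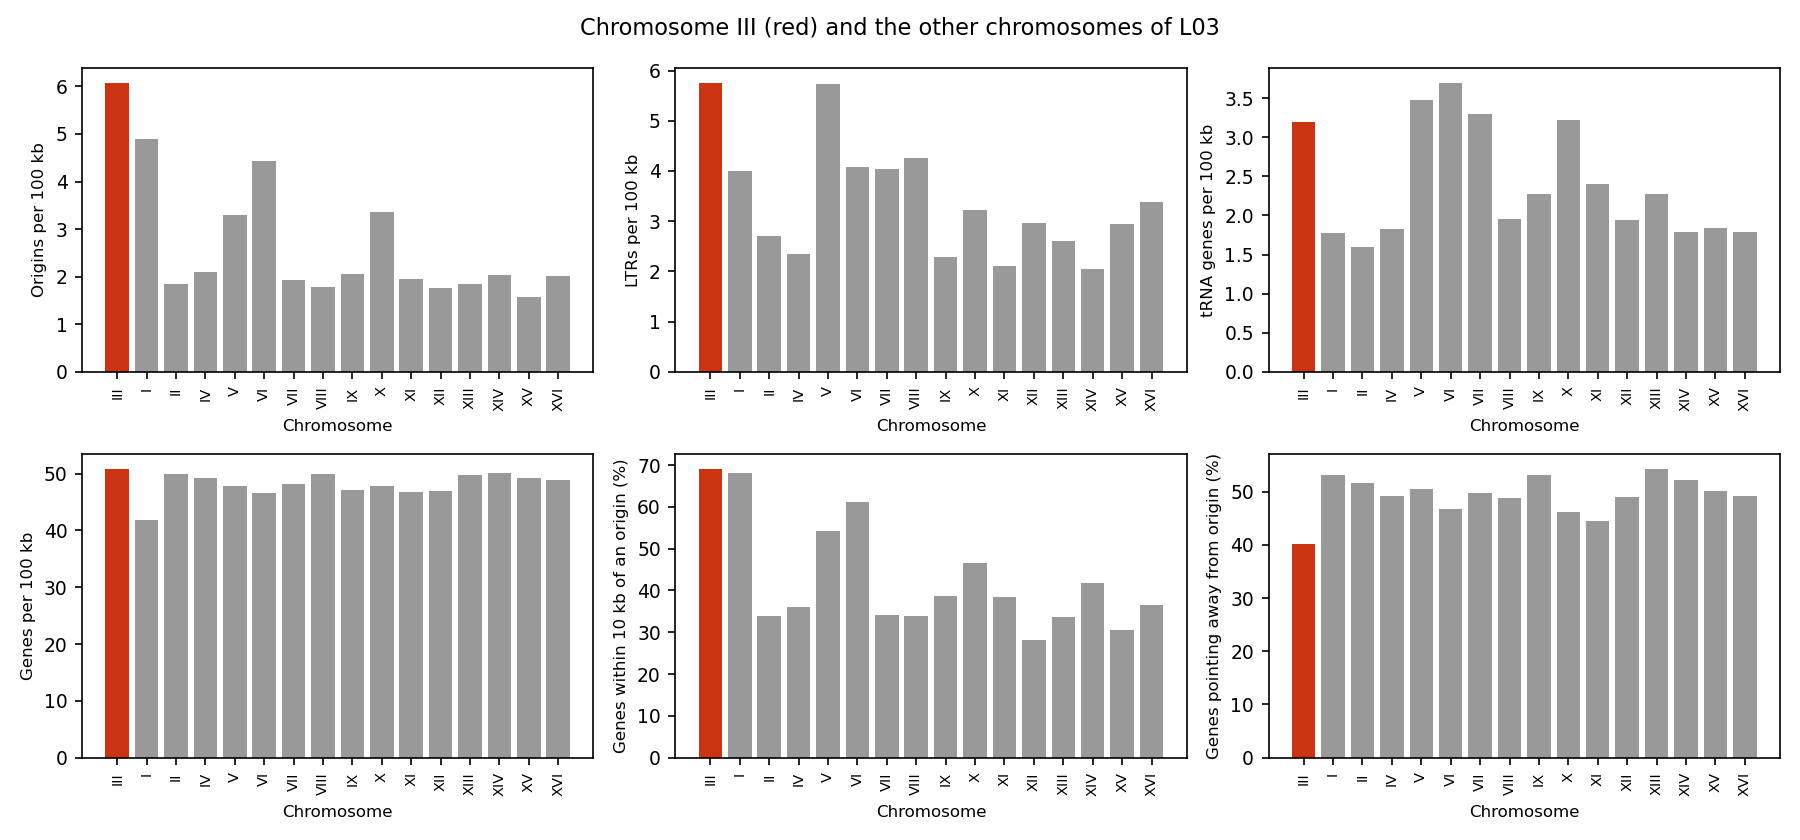
Bars give, for chromosome III in red and each other chromosome in grey, the origins, LTRs, tRNA genes and genes per 100 kb, the percent of genes within 10 kb of an origin and the percent of genes transcribed away from the nearest origin. Chromosome III is highest for origins (6.08), for LTRs (5.76, with chromosome V at 5.73), for genes (50.9) and for genes near an origin (69.2%), and lowest for genes pointing away (40.3%).

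On chromosome III 64 of 159 genes were transcribed away from the nearest origin (40.3%) and 95 toward it (59.7%), against 44.5% to 54.3% away on the other chromosomes. If a gene's 5′ end was used in place of its midpoint, the share away was 45.3%, and chromosome XI was nearly level with 45.5%. Neighbouring genes share an origin and are not independent, and the cause of the low share was not tested.

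The named gene groups sat at different distances from origins. In the mating and pheromone group 13 of 15 listed genes were analysed, and their median distance was 2.00 kb, against 6.21 kb for all genes of the chromosome. The 6 cassette genes and BUD5, at loci with an origin inside or beside them, lay at 0.641 to 3.21 kb. The other 6 genes had a median of 7.8 kb and a range of 2.00 to 11.6 kb, a split made after the values were seen. Of the 13, 10 pointed toward the nearest origin, where 59.7% of all genes of the chromosome did so. FUS1, a cell fusion gene, lay 2.00 kb from ARS306, and KAR4, a transcription factor gene of the pheromone response, 2.00 kb from ARS304. STE50, an adaptor of the pheromone kinase cascade, lay at 10.6 kb and TUP1, the corepressor that works with alpha2, at 11.6 kb. BIK1, a microtubule protein gene of nuclear fusion, lay at 5.31 kb, and the bud-site genes BUD5 and BUD3 at 1.09 and 10.3 kb.

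The replication, repair and chromosome group held 9 genes, all listed as genes of this chromosome. Their distances were 4.72 to 13.8 kb with a median of 7.90 kb, against 6.21 kb for all genes of the chromosome. Of the 9, 7 pointed toward the origin, where 59.7% of all genes of the chromosome did so. MRC1, the fork checkpoint mediator, lay 4.72 kb from ARS320, and DCC1, of the alternative clamp loader, 13.8 kb from ARS307. POL4, a DNA polymerase of end joining, lay 7.90 kb from ARS309, RAD18, the ubiquitin ligase for PCNA, 7.29 kb from ARS315, and MSH3, of mismatch repair, 5.32 kb from ARS316. CSM1 of monopolin, RIM1, the mitochondrial single-strand binding protein, and RSC6 and HTL1 of the RSC remodeller were at 9.30, 6.27, 9.22 and 11.5 kb. The altered polymerase genes and RNH201 of this series are on other chromosomes.

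Of the amino acid group, CHA1 lay 0.595 kb from ARS320, ILV6 3.95 kb from ARS307, HIS4 7.43 kb from ARS306 and THR4 7.47 kb from ARS315, with the remnant of LEU2 at 16.4 kb, and 3 of these 5 pointed toward the origin. The carbon metabolism genes PGK1, for phosphoglycerate kinase, GLK1, for glucokinase, and CIT2, for peroxisomal citrate synthase, were at 6.21, 12.2 and 7.01 kb, and 1 of the 3 pointed toward the origin. The ribosomal protein genes RPS14A, IMG1, IMG2 and MRPL32 had distances of 10.9, 12.7, 15.4 and 4.27 kb, and 3 of the 4 pointed toward the origin. Over all genes of the chromosome the share toward was 59.7%, and groups this small do not show an orientation of their own. The small nucleolar RNA genes SNR43, SNR33, SNR65 and SNR189 lay at 1.43, 10.3, 10.3 and 11.8 kb, and none was inside a gene.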

How the data were processed

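The 1 file used is the authors' deposited annotation of L03, derived per the file header from version R64-1-1 of the S288C genome. No source used here states how it was transferred. In the submitters' processing notes stand Bowtie 0.12.8 and cutadapt 1.2.1, tools for reads, which were not analysed here. Coordinates are as deposited, in bp from 1. Genes were gene rows with an mRNA, less 2 reading frames called dubious, both on other chromosomes, which left 5857. Distances run between midpoints unless edges are named, and a gene points away from an origin if it is transcribed in the direction leading from the nearest origin past its midpoint. All 159 genes of chromosome III matched the R64 table by locus tag. The table was used for names and order only: 17 have another symbol there, FEN1 of the file being ELO2, and 156 of 158 neighbouring pairs were neighbours in both. Members, lists and the rule for named features were chosen with earlier results of these data known. Named were the loci, origins, tRNA genes, LTRs, engineered sites, their neighbours, the longest genes and stretches, and 5 gene lists; short tRNA and LTR features, mismatched coding lengths, genes of several coding parts, strand runs, overlapping pairs, genes under an origin and genes over 20 kb from one were named after their values were seen. Intervals are exact binomial (shares) or Poisson (densities) at 95%, used only to compare alternatives. For the median origin distance the bounds of the interval are observed distances. The calculations were tested on simulated data with Python 3.11.15, numpy 2.4.6, scipy 1.17.1, pandas 2.3.3 and matplotlib 3.10.9.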

Additional observations from a re-analysis of the deposited data

How the results depend on the processing

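Alternatives changed which genes or origins count, the distance limit, where a distance starts and whether the ends enter. Of 19 alternative values, 15 stayed inside the 95% interval of the value they were set against. The intervals treat the features of 1 reference as independent draws, which they are not. For the share of sequence in genes they treat single bases so. Staying inside therefore does not show that a value is unaffected. Origin density counted as inside although it fell from 6.08 to 4.19 per 100 kb with the outer 25 kb left out. The whole origin was outside genes in 68.4% of cases, against 100% for midpoints (96.9% on the other chromosomes). Within 5 kb of an origin were 41.5% of genes, against 69.2% within 10 kb. Away from the outer 25 kb, genes covered 72.5% of the sequence, against 68.4%. The median of the other chromosomes was then 73.9%, and chromosome III ranked 15 of 16 from the highest. Genes with experimental evidence only, an alternative added after the data were seen, had a density of 39.0 per 100 kb, against 50.9, and chromosome III then ranked 8 of 16 from the highest. The origin density stayed the highest of the 16 with the outer 25 kb left out (4.19, next 4.09 on chromosome VI), without the leftmost 40 kb (4.405, next 4.32 on chromosome I) and with origins under 1 kb apart counted once (5.44). Within 5 kb of an origin 37.9% of genes pointed away, and chromosome XII was then lower, with 36.4%. With experimental evidence only, 46.7% of genes were on the plus strand, and 2 chromosomes had less. No paired analysis was possible because reads were not analysed and no test was made. The number of features limits precision, not depth.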
